A study of Mus musculus with 32 samples.

Results

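The 40 genes of cell division described here were taken by symbol from a table of 55487 gene identifiers measured in mouse liver. Each of the 40 was found once, and all 40 were among the 14903 genes that passed the filter on low counts. The livers came from mice with FAAH S268D on the NASH-AA diet, FAAH S268D on the NASH diet, wild type (WT) on the NASH-AA diet and WT on the NASH diet, with 8 libraries in each group. S268D replaces a residue of fatty acid amide hydrolase, FAAH, a change known to impair the breakdown of N-acyl taurines and to spare that of anandamide. The series text gives 28 weeks on HFFC with or without ARA, abbreviations that the labels do not spell out, and its title concerns arachidonoyl-taurine, fatty liver and inflammation. All 4 groups were on a diet labelled NASH or NASH-AA, and a chow-fed liver was not analysed here. The sources used here do not state strain, age or sex. The labels do not tie replicates to different animals, and the p-values therefore rest on spread among samples that may be technical.

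RNA of the whole liver was measured as polyA RNA. The libraries held between 3851626 and 34370178 counts. The shallowest, FAAH S268D NASH replicate 1, stood apart from the next, which held 14743252. Of 15 hepatocyte markers, all 15 were detected, and together they summed to 71210 to 126000 CPM, so the tissue carried the RNA of its label. Levels are given as CPM, each gene's counts relative to the library's total, after scaling between libraries, and differences as log2 fold changes ± SE from limma-voom, with a p-value adjusted over the 14903 genes and a threshold of 0.05. The labels number the libraries 1 to 32 without saying what a number stands for, and values within numbers 1 to 16 and 17 to 32 are given where they differ.

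Division of a cell is driven by cyclins and the kinases they switch on. Cyclin D responds to growth signals, E2F factors then turn on the genes that copy DNA, and FOXM1 with the MuvB complex turns on the genes of mitosis, which the DREAM complex represses in resting cells. Hepatocytes of an adult liver rarely divide, yet they re-enter the cycle after injury, and immune, stellate and bile duct cells of an inflamed liver divide as well. In RNA of a whole liver, fewer dividing cells and less RNA per dividing cell cannot be told apart, and neither can the type of the cells that divide.

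Promoter sequences are shown for 6 of the genes that were lower in FAAH S268D than in WT livers on the NASH diet, and for Mcm5, a gene of DNA replication that did not pass. They are the 250 bases before the gene's start, 5′ to 3′, from RefSeq on GRCm38.p6. The positions are chr7:135716380-135716629, minus strand, for Mki67, chr11:99024190-99024439, minus strand, for Top2a, chr13:100786487-100786736, minus strand, for Ccnb1, and chr9:70421555-70421804, minus strand, for Ccnb2. Those of the others are chr10:69352913-69353162, minus strand, for Cdk1, chr19:37376132-37376381, plus strand, for Kif11, and chr8:75109259-75109508, plus strand, for Mcm5. Capitals mark matches on either strand to 3 motifs, namely the cell cycle homology region (CHR, searched as TTTGAA or TTCGAA), the CCAAT box (CCAAT) and the E2F site (TTTCCCGC, TTTGGCGC or TTTCGCGC).
Mki67: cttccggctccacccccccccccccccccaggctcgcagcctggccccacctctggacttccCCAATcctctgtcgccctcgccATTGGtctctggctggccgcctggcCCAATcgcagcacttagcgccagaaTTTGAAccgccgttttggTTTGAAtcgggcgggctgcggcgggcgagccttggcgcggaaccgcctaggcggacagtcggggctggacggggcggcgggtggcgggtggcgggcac
Top2a: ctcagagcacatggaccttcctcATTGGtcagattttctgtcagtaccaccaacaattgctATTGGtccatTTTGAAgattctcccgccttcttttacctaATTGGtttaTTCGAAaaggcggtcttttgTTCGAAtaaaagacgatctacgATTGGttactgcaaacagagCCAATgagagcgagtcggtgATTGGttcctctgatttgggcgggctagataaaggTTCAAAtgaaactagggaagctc
Ccnb1: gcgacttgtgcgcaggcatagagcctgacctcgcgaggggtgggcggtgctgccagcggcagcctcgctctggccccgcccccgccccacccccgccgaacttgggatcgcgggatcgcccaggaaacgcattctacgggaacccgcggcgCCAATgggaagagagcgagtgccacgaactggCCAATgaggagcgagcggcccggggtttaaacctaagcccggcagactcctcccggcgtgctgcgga
Ccnb2: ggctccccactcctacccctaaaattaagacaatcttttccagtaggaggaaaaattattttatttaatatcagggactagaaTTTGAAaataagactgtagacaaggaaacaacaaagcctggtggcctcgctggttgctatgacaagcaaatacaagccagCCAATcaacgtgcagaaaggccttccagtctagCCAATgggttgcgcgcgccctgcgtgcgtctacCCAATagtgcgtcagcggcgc
Cdk1: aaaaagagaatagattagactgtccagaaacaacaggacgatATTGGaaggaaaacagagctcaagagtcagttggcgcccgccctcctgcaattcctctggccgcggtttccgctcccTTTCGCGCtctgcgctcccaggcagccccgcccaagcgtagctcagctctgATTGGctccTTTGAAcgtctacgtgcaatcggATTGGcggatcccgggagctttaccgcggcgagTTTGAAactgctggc
Kif11: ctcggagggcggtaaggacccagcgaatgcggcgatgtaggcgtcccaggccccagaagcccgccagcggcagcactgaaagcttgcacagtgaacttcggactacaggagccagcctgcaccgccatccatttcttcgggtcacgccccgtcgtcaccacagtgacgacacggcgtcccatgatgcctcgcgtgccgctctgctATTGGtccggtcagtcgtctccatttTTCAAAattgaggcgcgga
Mcm5: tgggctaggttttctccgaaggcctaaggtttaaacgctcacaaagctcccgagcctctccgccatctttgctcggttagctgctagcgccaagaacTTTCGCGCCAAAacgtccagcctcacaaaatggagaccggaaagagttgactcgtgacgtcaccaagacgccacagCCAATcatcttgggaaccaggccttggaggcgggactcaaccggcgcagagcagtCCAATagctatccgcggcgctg
Over the window from 250 bases before to 50 after the start, Top2a held 4 CHR and 6 CCAAT matches, Mki67 held 2 and 3, and Cdk1 held 2 and 3 with 1 E2F match. Ccnb2 held 2 CHR and 3 CCAAT matches, 1 of the CHR matches after the start and so not printed. Kif11 held 1 of each, and Ccnb1 had 0 CHR and 2 CCAAT matches. Mcm5 had 0 CHR and 3 CCAAT matches, 1 of the CCAAT matches after the start and so not printed. It also had 2 overlapping E2F matches. RefSeq windows were listed for 32 of the 40 genes. A CHR match was present in 16 of these 32 (50%), in 9 of 12 genes of the mitotic kinases and the spindle (75%) and in 3 of 13 genes of replication and deoxynucleotide supply (23.1%), against 19.4% of 27025 promoters. An E2F match was present in 0 of the 12, in 6 of the 13 (46.2%) and in 1.91% of all promoters. CCAAT was found in 24 of the 32 (75%) and in 37.9% of all promoters. Both motifs were present in 16 of the 32 (50%), against 7.7% of all promoters. Every one of the 16 with a CHR match thus also held a CCAAT match. Among all promoters, 2082 of the 5254 with a CHR match did. Across these 32 windows, 1 pair of matches to different motifs overlapped. The matches are letters in a window and not sites of binding.

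Per kilobase of exon, Ccnd1 (10.6 CPM per kb) and Pcna (10.2 CPM per kb) had the highest levels of the 40, as means over 32 libraries. The helicase subunit Mcm7 followed at 3.47 CPM per kb. Mki67 had a level of 0.695 CPM per kb, Cdk1 of 0.372, and the lowest were the checkpoint kinase Bub1 (0.0767 CPM per kb) and the kinetochore protein Cenpf (0.0614 CPM per kb). Counts were small for many of the genes, Cdc6 and Cdc45 of the replication genes included. Bub1 had a median of 7.5 counts per library, Cdc6 of 13, Prc1 of 33.5 and Cdc45 of 39, while Ccnd1 had 938.5. The other replication genes had medians from 114 for Cdt1 to 589.5 for Pcna.

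Between genotypes on the NASH diet, cyclins, kinases and spindle proteins of mitosis were among the genes that fell in FAAH S268D livers, and 0 of the 4 genes of deoxynucleotide supply passed. At the threshold, 12 of the 40 fell and 0 rose, where 9.18% of all genes tested were called, 6.29% lower and 2.89% higher. The 12 are Mki67, Top2a, Ccnb1, Ccnb2, Cdk1, Foxm1, Plk1, Aurkb, Kif11, Tpx2, Prc1 and Cenpe. Fold changes were negative for 37 of the 40, with a median of -0.65, while 49.9% of all genes were negative. For this comparison the 40 genes, FAAH S268D over WT, ran from -1.12 for Mki67 to 0.18 for Tk1.

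The calls depended on which libraries were read. Among libraries 1 to 16 alone 9 of the 40 fell, where 5.92% of all genes were called, with a median over the 40 of -1.05. Among libraries 17 to 32 alone 0 did, where 0.134% of all genes were called, and the median was -0.09. Fitted on the FAAH S268D NASH and WT NASH libraries alone, 0 of the 40 passed, where 0.49% of all genes were called, with the same median of -0.65. Without FAAH S268D NASH replicate 2, 3 or 4 the count was 0 each time, without WT NASH replicate 5 it was 21, and without WT NASH replicate 2, 3, 4, 7 or 8 it was 2, 6, 4, 4 and 6. Without the shallow FAAH S268D NASH replicate 1 it was 11. Calls over all genes changed as well, from 1368 in the main fit to 2646 without WT NASH replicate 5. They fell to 492 without FAAH S268D NASH replicate 4, so these changes were not confined to the 40. All-gene calls beside the other counts are not given here, so those counts cannot be set against the share over all genes.

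On the NASH-AA diet 0 of the 40 passed between FAAH S268D and WT in limma-voom, where 0.658% of all genes were called, 0.349% higher and 0.309% lower. Their median fold change was -0.47 and 36 of the 40 were negative, against 49.4% of all genes. At an unadjusted p under 0.05 there were 17 of the 40, against 15.6% of all genes, and limma-trend called 0. Here the ranges of library numbers gave like medians, -0.43 in 1 to 16 and -0.46 in 17 to 32, with 0 of the 40 called in each and 0.127% and 0.275% of all genes called. Fitted on these 2 groups alone, 7 of the 40 fell, where 4.12% of all genes were called: Mki67, Top2a, Aurkb, Kif20a, Tpx2, Prc1 and Cenpe.

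In WT livers 1 of the 40, Bub1, fell on the NASH-AA diet relative to the NASH diet, where 4.41% of all genes were called, 1.44% higher and 2.97% lower, a larger share than among the 40. The median of the 40 was -0.38, 37 of the 40 were negative, and 13 had an unadjusted p under 0.05, against 24.4% of all genes. In the ranges of library numbers the medians were -0.48 and -0.31, with 0 called in each and 0.0% and 1.1% of all genes called. Fitted on the 2 WT groups alone, 3 of the 40 fell, Ccnd1, Cdk1 and Cenpe, where 7.31% of all genes were called. The count of 1 became 0 without any of WT NASH replicates 2, 3, 4, 6, 7 or 8 or WT NASH-AA replicates 3, 4, 5, 7 or 8. It became 2 without FAAH S268D NASH replicate 3 or 4, 3 without FAAH S268D NASH replicate 5 and 11 without WT NASH replicate 5. Calls over all genes changed as well, from 657 in the main fit to 2191 without WT NASH replicate 5. They fell to 26 without WT NASH replicate 2. All-gene calls with any of the other libraries left out are not given here.

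In FAAH S268D livers 0 of the 40 passed between NASH-AA and NASH diets in limma-voom, where 0.0939% of all genes were called, 0.0268% higher and 0.0671% lower. At an unadjusted p under 0.05 there were 3 of the 40, against 12.4% of all genes, and limma-trend called 0. The median was -0.30 with 35 of the 40 negative, and -0.56 with 38 negative when libraries were weighted by quality. It was 0.02 among libraries 1 to 16, with 0 of the 40 and 0.0% of all genes called, and -0.75 among libraries 17 to 32, where Ccnd1 and Cdt1 fell (2 of the 40, with 2.5% of all genes called). Fitted on the 2 FAAH S268D groups alone, 0 of the 40 passed, with 0.0268% of all genes called. Without FAAH S268D NASH replicate 2 or 3, the count over all libraries was 1 and 2. Without replicate 3 of that group, calls over all genes were 362, against 14 in the main fit. Those without replicate 2 are not given here. For the interaction, which asks whether the diet effect differed between genotypes, 0 of the 40 passed in limma-voom and 0 in limma-trend, with 0.0% of all genes called in either direction, higher or lower, 1 of the 40 at an unadjusted p under 0.05 and a median of 0.04. With quality weights that median was -0.12 and 29 of the 40 were negative. It was 0.48 among libraries 1 to 16 and -0.50 among libraries 17 to 32, with 0 of the 40 and 0.0% of all genes called in each. The libraries of every group enter more than 1 of these comparisons, so the comparisons are not independent of each other.

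**Figure D1:**
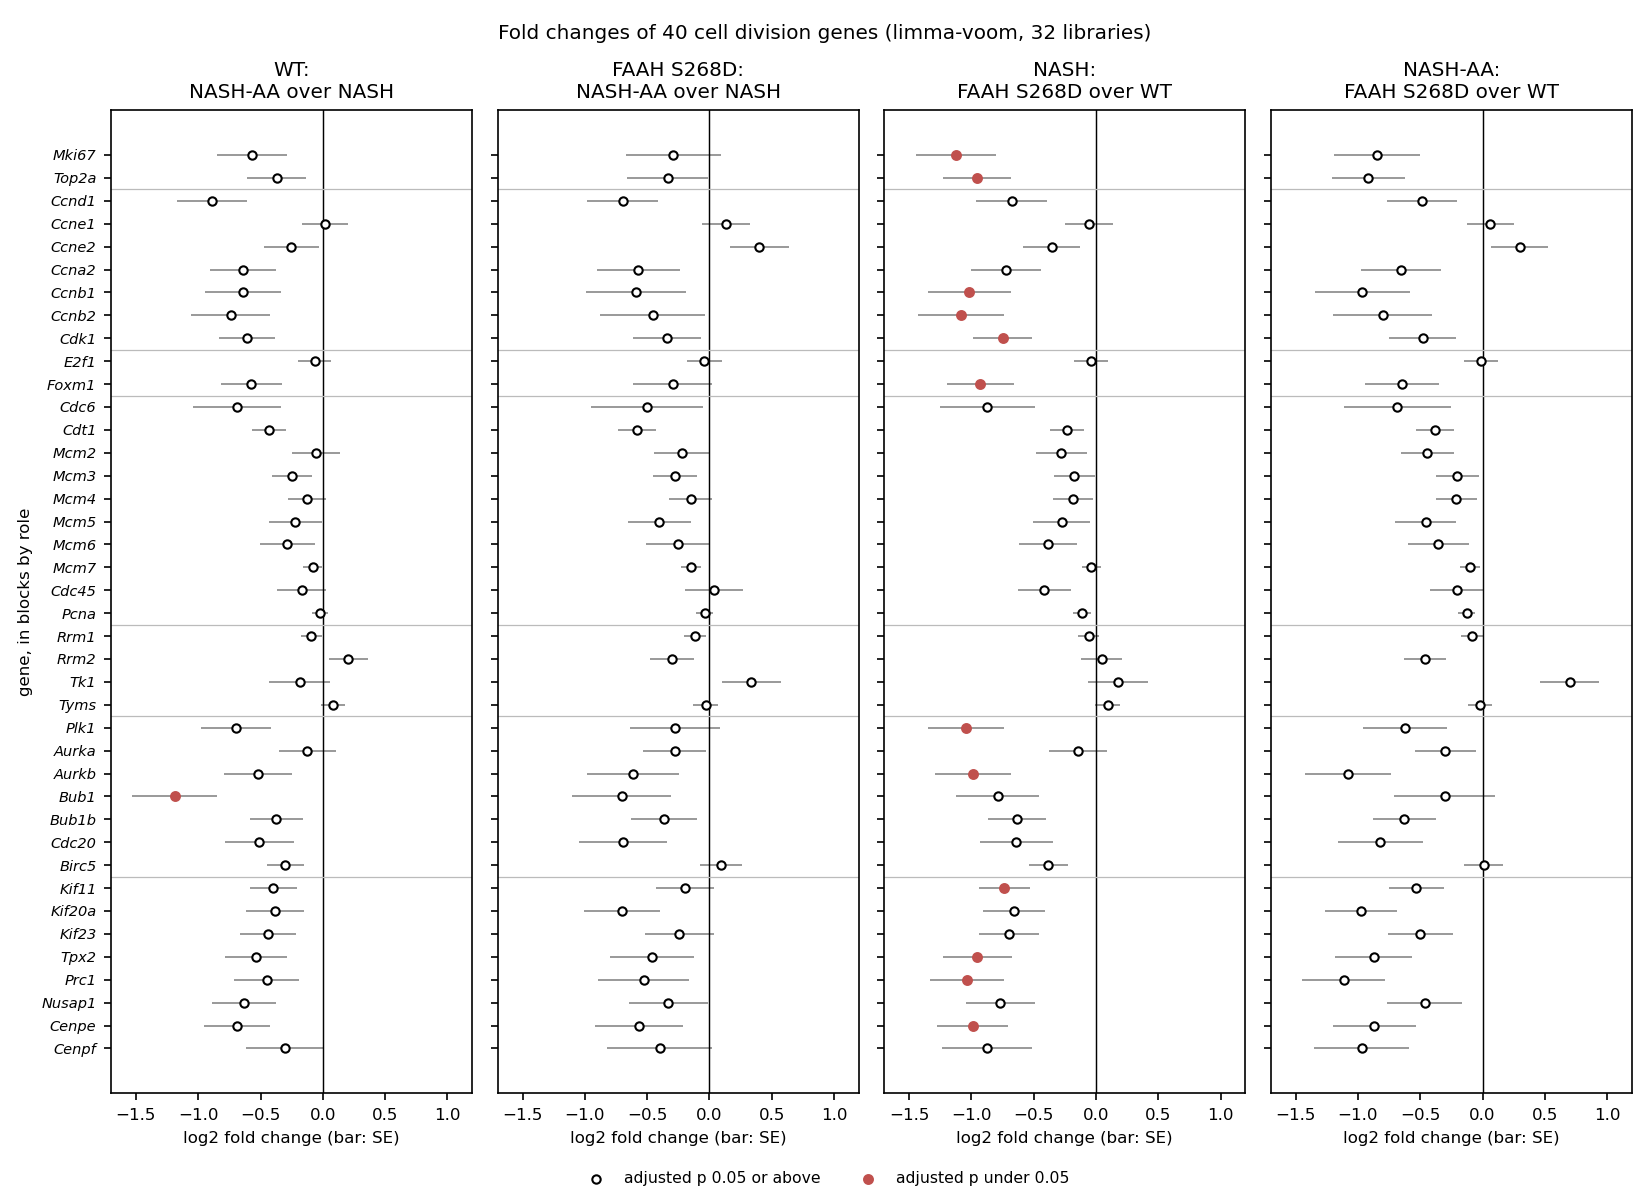
Log2 fold change (horizontal axis, bar ± SE) of each of the 40 genes (vertical axis, in blocks by role) in 4 comparisons, with filled red points for an adjusted p under 0.05 in limma-voom over 32 libraries. The 12 filled points in the comparison of FAAH S268D with WT on the NASH diet lie between -1.12 and -0.73, and in WT livers Bub1 is the only filled point.

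**Figure D2:**
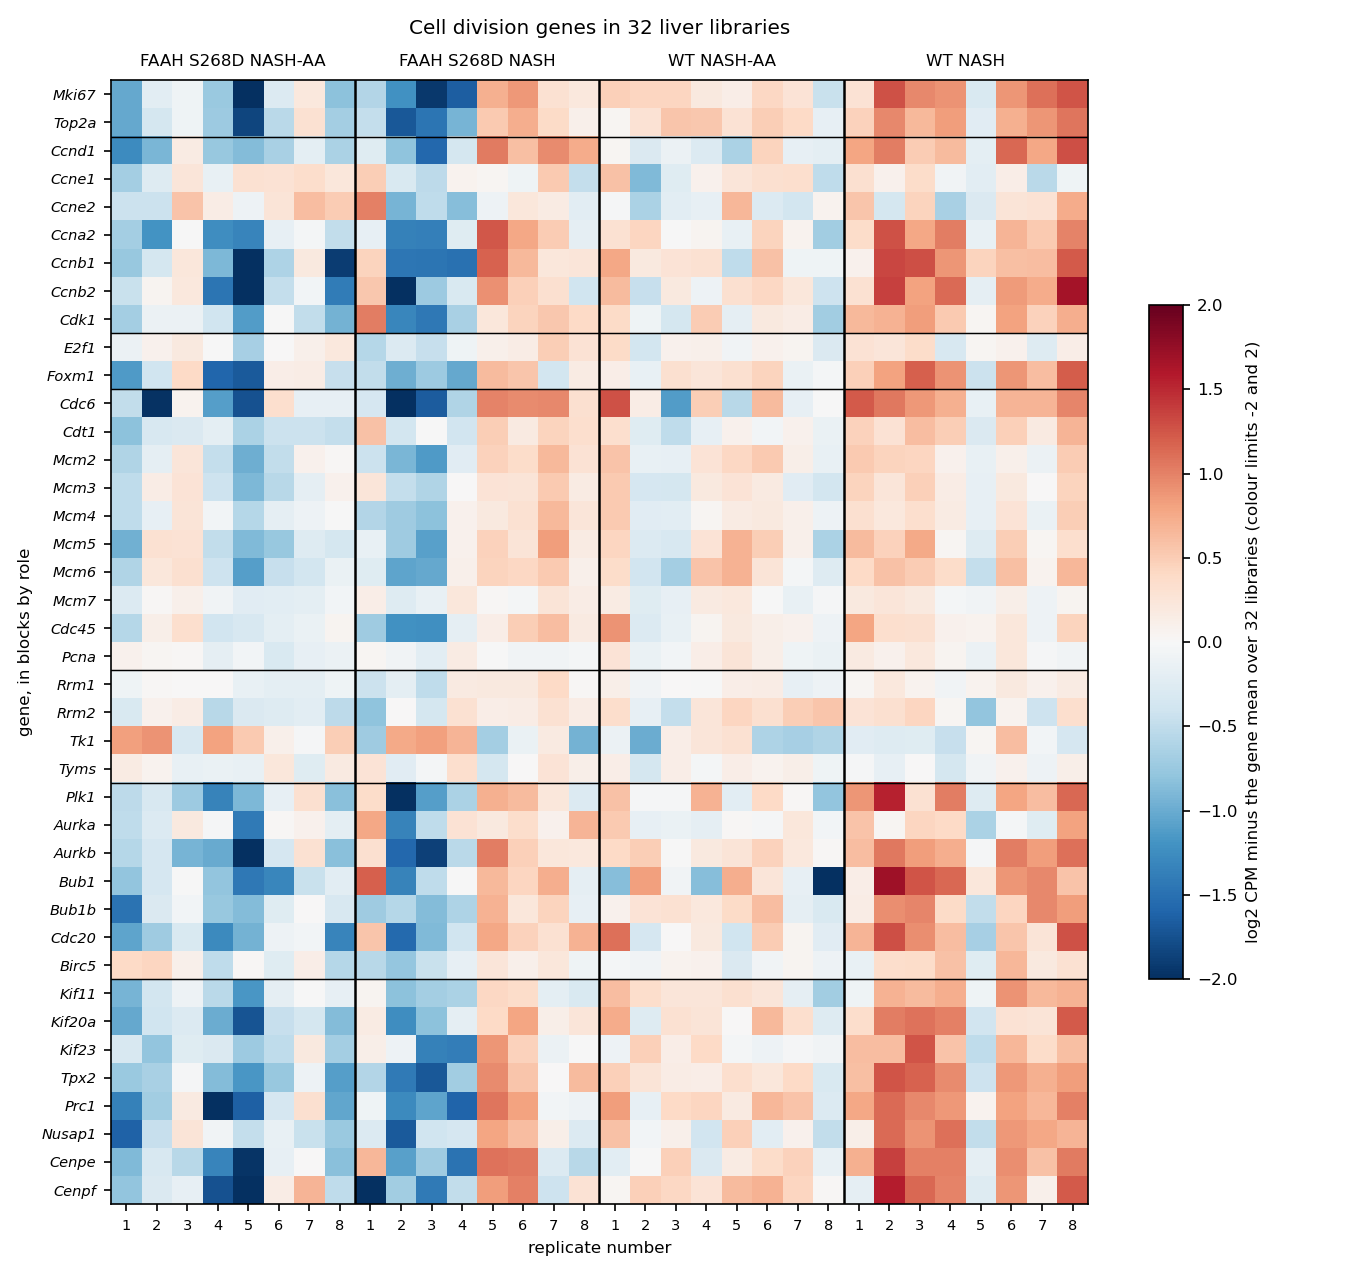
Level of each gene in each of the 32 libraries, as log2 CPM minus the gene's mean over the libraries, with red for higher and blue for lower and with colours ending at -2 and 2. Columns are replicates 1 to 8 of each group, and FAAH S268D NASH replicates 2, 3 and 4 are blue in most rows while FAAH S268D NASH replicates 5 and 6 are red in most.

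The proliferation marker Mki67 (ENSMUSG00000031004, chromosome 7, 135689784 to 135716361, GRCm38), which coats the chromosomes of dividing cells, had a lowest, median and highest level of 1.55, 5.4 and 10.9 CPM in FAAH S268D NASH, against 4.86, 11.4 and 14.4 CPM in WT NASH. On the other diet they were 1.48, 4.23 and 6.92 CPM in FAAH S268D NASH-AA, against 4.37, 7.59 and 8.34 CPM in WT NASH-AA. On the NASH diet the gene fell in FAAH S268D livers (log2 fold change -1.12 ± 0.32, limma-voom adjusted p = 0.0264). All 8 FAAH S268D NASH libraries lay below the WT NASH median and 4 of them below the lowest WT NASH library, so the groups overlapped. Replicates 1 to 8 of FAAH S268D NASH had 3.87, 2.56, 1.55, 1.88, 9.78, 10.9, 7.39 and 6.93 CPM. Within libraries 1 to 16 Mki67 averaged 3.93 ± 3.39 CPM (SD, n = 5) in FAAH S268D NASH and 11.1 ± 2.95 CPM (SD, n = 4) in WT NASH. Within libraries 17 to 32 it averaged 8.41 ± 2.17 CPM (SD, n = 3) in FAAH S268D NASH and 10.8 ± 4.15 CPM (SD, n = 4) in WT NASH. The difference was thus larger in the lower range of numbers. For Mki67 on the NASH-AA diet the fold change, FAAH S268D over WT, was -0.85 ± 0.35 (adjusted p = 0.238).

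Top2a (ENSMUSG00000020914, chromosome 11, 98992943 to 99024189), the topoisomerase that untangles sister chromosomes, followed the same order. Its lowest, median and highest levels were 0.995, 2.86 and 5.42 CPM in FAAH S268D NASH, against 2.799, 5.61 and 6.89 CPM in WT NASH. For the NASH-AA diet the levels were 0.895, 2.14 and 4.03 CPM in FAAH S268D NASH-AA, against 2.91, 4.16 and 4.78 CPM in WT NASH-AA. It fell in FAAH S268D livers on the NASH diet (-0.95 ± 0.27, adjusted p = 0.0264), with all 8 libraries below the WT NASH median and 4 below the lowest WT library. In the NASH-AA groups 6 of 8 FAAH S268D libraries lay below the lowest WT library, and the fold change of -0.92 ± 0.29 did not pass (adjusted p = 0.146).

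**Figure D3:**
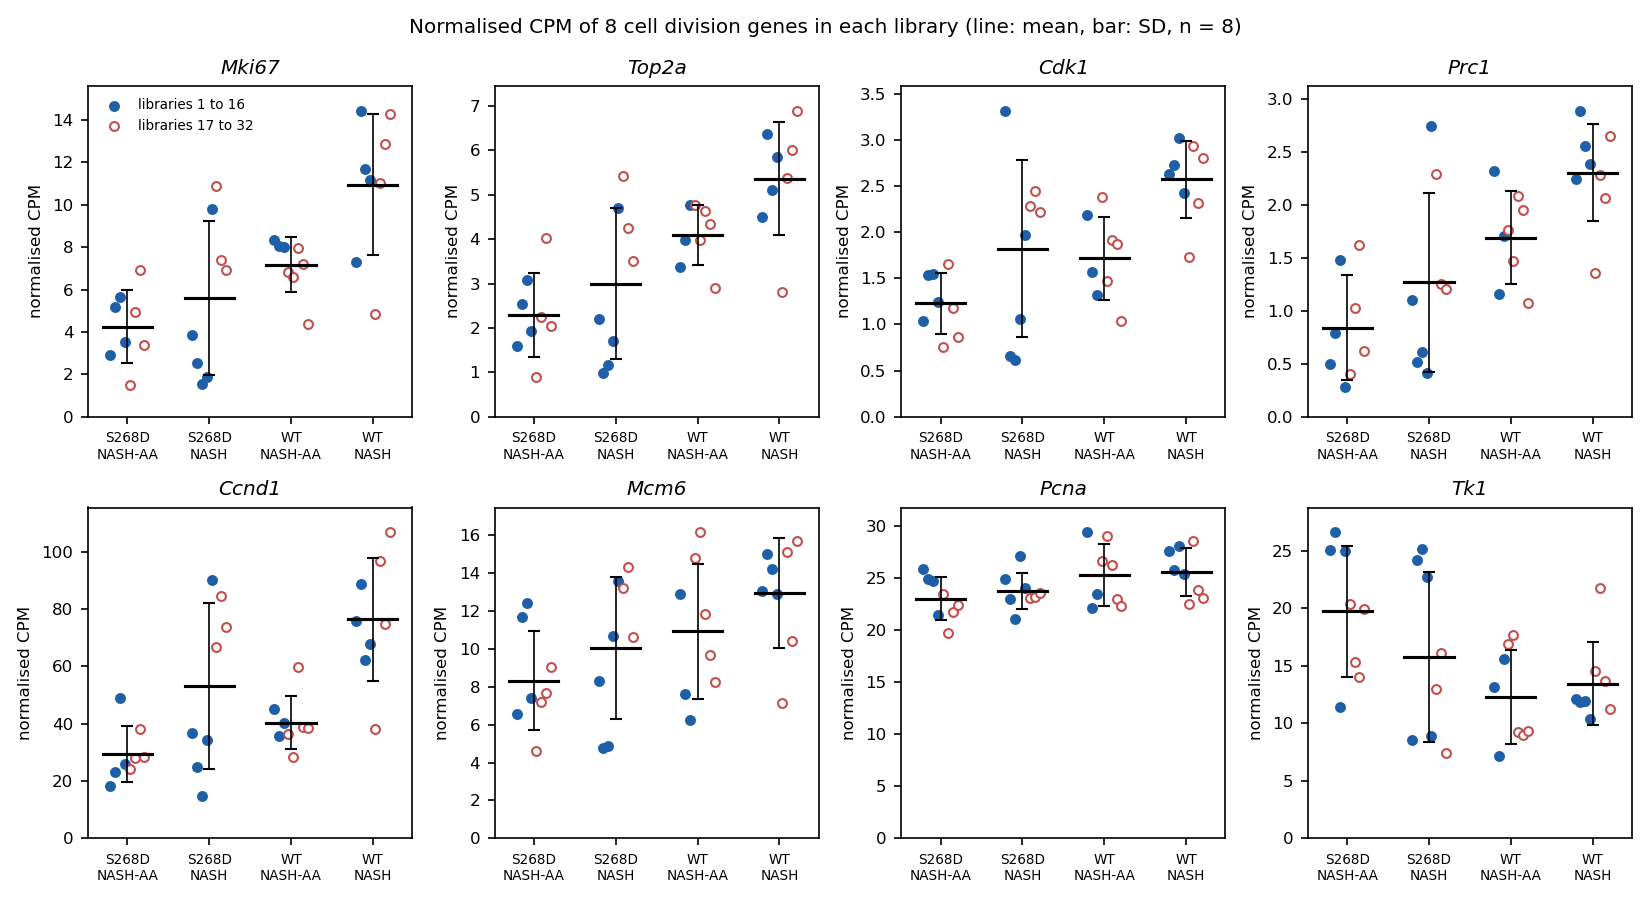
Normalised CPM (vertical axis, from 0) of 8 genes in each library, with the mean as a line and the SD as a bar (n = 8 per group), filled blue for libraries 1 to 16 and open red for libraries 17 to 32. Mki67, Top2a, Cdk1 and Prc1 are lowest in FAAH S268D NASH-AA and highest in WT NASH by their means, FAAH S268D NASH spreads over the range of the others, Pcna stays between 19.8 and 29.4 CPM, and Tk1 has its highest mean in FAAH S268D NASH-AA.

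Among the 7 genes that encode cyclins and CDK1, Ccnb1, Ccnb2 and Cdk1 fell in FAAH S268D livers on the NASH diet, and the other 4 did not pass. Ccnb1 and Ccnb2 encode B-type cyclins, which switch on CDK1 for entry into mitosis. Ccnb1 had a lowest, median and highest level of 0.2297, 0.816 and 1.59 CPM in FAAH S268D NASH, against 0.735, 1.18 and 1.78 CPM in WT NASH. Its fold change of -1.02 ± 0.33 was close to the threshold (adjusted p = 0.0499), and 9 of the 32 fits that left out a library kept the call. Ccnb1 shares 22.9% of its 31-base words with a processed pseudogene, Ccnb1-ps, and counts may have been divided between them. Ccnb2 had 0.142, 1.06 and 1.96 CPM in FAAH S268D NASH, against 0.905, 1.84 and 3.31 CPM in WT NASH. It fell as well (log2 fold change -1.09 ± 0.34, adjusted p = 0.0427). For both cyclins 7 of 8 FAAH S268D libraries lay below the WT median while the ranges overlapped.

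Cdk1 (ENSMUSG00000019942, chromosome 10, 69335146 to 69352938), the kinase that drives mitosis, had 0.6098, 2.09 and 3.32 CPM in FAAH S268D NASH, against 1.73, 2.68 and 3.02 CPM in WT NASH. It fell on the NASH diet in FAAH S268D livers (-0.75 ± 0.24, adjusted p = 0.0409). The highest of its 32 values, 3.32 CPM, was that of the shallow FAAH S268D NASH replicate 1, where it rests on 12 counts. With the NASH-AA diet Cdk1 had 0.761, 1.21 and 1.66 CPM in FAAH S268D NASH-AA, against 1.03, 1.72 and 2.38 CPM in WT NASH-AA, with -0.48 ± 0.27 (adjusted p = 0.387). All 8 FAAH S268D libraries were below the WT median on that diet.

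Ccnd1, a D-type cyclin, which answers growth signals, had the highest level of the 40 per kilobase. In FAAH S268D livers it had 18.2, 26.9 and 48.9 CPM in FAAH S268D NASH-AA, against 14.7, 51.8 and 90.02 CPM in FAAH S268D NASH. In WT livers it had 28.2, 38.7 and 59.7 CPM in WT NASH-AA, against 38.1, 75.3 and 107 CPM in WT NASH. In both genotypes all 8 NASH-AA libraries lay below the median of the NASH libraries. The diet fold changes were -0.70 ± 0.29 in FAAH S268D (adjusted p = 0.306) and -0.89 ± 0.28 in WT (adjusted p = 0.0576), and neither passed. The interaction of 0.19 ± 0.40 did not pass either (adjusted p = 0.95). Within libraries 17 to 32 the diet fold change in FAAH S268D was -1.36 and passed (adjusted p = 0.0319). With the 2 WT groups fitted alone it was -0.88 and passed (adjusted p = 0.0193).

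Cyclin E1 (Ccne1), which opens DNA replication, averaged 2.36 ± 0.538 CPM in FAAH S268D NASH-AA, 2.24 ± 0.623 CPM in FAAH S268D NASH, 2.33 ± 0.726 CPM in WT NASH-AA and 2.27 ± 0.446 CPM in WT NASH (SD, n = 8 each). Its fold changes in the 4 comparisons of 2 groups lay between -0.06 and 0.13. Cyclin E2 (Ccne2) had a fold change of 0.40 ± 0.24 for diet in FAAH S268D and of -0.25 ± 0.22 for diet in WT, and the difference of these, 0.65 ± 0.32, did not pass (adjusted p = 0.906). Cyclin A2 (Ccna2), which acts in replication and in mitosis, was negative in all 4, and on the NASH diet its fold change, FAAH S268D over WT, was -0.72 ± 0.28 (adjusted p = 0.0938).

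Of the transcription factors, Foxm1, the activator of mitotic genes, fell in FAAH S268D livers on the NASH diet. It had 0.643, 0.932 and 2.09 CPM in FAAH S268D NASH, against 0.988, 2.41 and 3.12 CPM in WT NASH, with a fold change of -0.93 ± 0.27 (adjusted p = 0.0272). Foxm1 overlaps Tex52 on its own strand. On the NASH-AA diet it had 0.403, 0.987 and 1.76 CPM in FAAH S268D NASH-AA, against 1.201, 1.52 and 1.83 CPM in WT NASH-AA (-0.65 ± 0.30, adjusted p = 0.29). All 8 FAAH S268D NASH libraries were below the WT NASH median. E2f1, an activator of replication genes, averaged 7.58 ± 1.27 CPM in FAAH S268D NASH-AA, 7.56 ± 1.95 CPM in FAAH S268D NASH, 7.68 ± 1.26 CPM in WT NASH-AA and 8.08 ± 1.33 CPM in WT NASH (SD, n = 8 each). Its 4 fold changes were between -0.07 and -0.01, each smaller than its SE.

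Genes that load and run the replication fork had negative fold changes in most comparisons and 0 of 10 passed in any of the 5 contrasts. For the NASH diet their median, FAAH S268D over WT, was -0.25, against -0.82 for the 8 genes of the spindle, kinetochore and cytokinesis. Cdc6, which brings the helicase to origins, had the most negative value of the 10, -0.87 ± 0.38 (adjusted p = 0.141). Cdt1, its partner in loading, had the smallest unadjusted p of the 40 for diet in FAAH S268D. Its level was 2.82, 3.72 and 4.37 CPM in FAAH S268D NASH-AA, against 3.86, 5.98 and 7.46 CPM in FAAH S268D NASH. The fold change was -0.58 ± 0.15 and did not pass (adjusted p = 0.118), with 5 of 8 NASH-AA libraries below the lowest NASH library. In WT livers its diet fold change was -0.43 ± 0.13 (adjusted p = 0.0566).

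The 6 subunits of the MCM helicase, Mcm2 to Mcm7, had fold changes between -0.39 and -0.04 on the NASH diet, FAAH S268D over WT. Mcm6 averaged 8.32 ± 2.62 CPM in FAAH S268D NASH-AA, 10.04 ± 3.76 CPM in FAAH S268D NASH, 10.9 ± 3.56 CPM in WT NASH-AA and 12.9 ± 2.88 CPM in WT NASH (SD, n = 8 each). Mcm7, the most abundant of the 6 per kilobase, averaged 14.2 ± 1.33 CPM in FAAH S268D NASH-AA, 15.8 ± 1.94 CPM in FAAH S268D NASH, 15.3 ± 1.84 CPM in WT NASH-AA and 16.2 ± 1.52 CPM in WT NASH (SD, n = 8 each). Subunits of the same ring thus differed in spread. Mcm7 shares 24.4% of its 31-base words with the pseudogene Gm5487 and overlaps 5 genes, Cops6 and Ap4m1 on the other strand among them. Pcna, the sliding clamp of the polymerase, averaged 23.04 ± 2.08 CPM in FAAH S268D NASH-AA, 23.8 ± 1.75 CPM in FAAH S268D NASH, 25.3 ± 2.96 CPM in WT NASH-AA and 25.6 ± 2.33 CPM in WT NASH (SD, n = 8 each). Its fold changes were between -0.13 and -0.02, and the gene shares 23.3% of its words with Pcna-ps2. Cdc45, which completes the helicase, had -0.41 ± 0.21 on the NASH diet (adjusted p = 0.221).

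Of the 4 genes of deoxynucleotide supply 0 passed in any contrast, and their median on the NASH diet, FAAH S268D over WT, was 0.07. Tk1, the thymidine kinase of the salvage pathway, had a lowest, median and highest level of 11.4, 20.2 and 26.6 CPM in FAAH S268D NASH-AA, against 7.16, 11.3 and 17.7 CPM in WT NASH-AA. In the NASH groups the levels were 7.41, 14.6 and 25.2 CPM in FAAH S268D NASH, against 10.4, 12.1 and 21.8 CPM in WT NASH. The fold change on NASH-AA, FAAH S268D over WT, was 0.70 ± 0.24 and did not pass (adjusted p = 0.163), although 0 of 8 FAAH S268D NASH-AA libraries lay below the WT NASH-AA median. FAAH S268D NASH replicates 2, 3 and 4, which were low in Mki67, had 24.2, 25.2 and 22.7 CPM of Tk1, the highest of their group. Tk1 overlaps Afmid, a gene on the other strand, and the sources used here do not state if counting was stranded. Tyms, thymidylate synthase, had fold changes between -0.03 and 0.09. The ribonucleotide reductase subunit Rrm1 averaged 12.1 ± 0.743 CPM in FAAH S268D NASH-AA, 12.9 ± 2.804 CPM in FAAH S268D NASH, 12.9 ± 1.03 CPM in WT NASH-AA and 13.7 ± 0.878 CPM in WT NASH (SD, n = 8 each), and its partner Rrm2 had -0.46 ± 0.17 on the NASH-AA diet (adjusted p = 0.191).

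Of 7 genes of the mitotic kinases and the spindle checkpoint, Plk1 and Aurkb fell in FAAH S268D livers on the NASH diet, and all 7 had negative fold changes there. Plk1, a kinase of mitotic entry and spindle poles, had 0.1896, 0.938 and 1.55 CPM in FAAH S268D NASH, against 0.782, 1.69 and 2.77 CPM in WT NASH. Its fold change was -1.04 ± 0.31 (adjusted p = 0.0285), with all 8 FAAH S268D libraries below the WT median. Aurkb, the kinase that corrects faulty chromosome attachments, had 0.188, 0.848 and 1.55 CPM in FAAH S268D NASH, against 0.741, 1.35 and 1.64 CPM in WT NASH (-0.99 ± 0.30, adjusted p = 0.0371). In NASH-AA livers Aurkb had 0.0895, 0.455 and 0.933 CPM in FAAH S268D NASH-AA, against 0.745, 0.889 and 1.06 CPM in WT NASH-AA. There 7 of 8 FAAH S268D libraries lay below the lowest WT library, and -1.08 ± 0.34 did not pass (adjusted p = 0.145). Aurka, its relative at the spindle poles, had -0.14 ± 0.23 on the NASH diet (adjusted p = 0.748).

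Bub1, a kinase of the spindle checkpoint, was the gene that fell with the NASH-AA diet in WT livers. In WT it had 0.0383, 0.259 and 0.508 CPM in WT NASH-AA, against 0.3096, 0.5499 and 0.9497 CPM in WT NASH, and 5 of 8 NASH-AA libraries lay below the lowest NASH library. The fold change was -1.19 ± 0.34 (adjusted p = 0.043), and 20 of the 32 fits that left out a library kept the call. In FAAH S268D it had 0.0895, 0.172 and 0.282 CPM in FAAH S268D NASH-AA, against 0.0948, 0.331 and 0.553 CPM in FAAH S268D NASH (-0.70 ± 0.40, adjusted p = 0.482). The difference between the genotypes in this diet effect, 0.49 ± 0.52, did not pass (adjusted p = 0.915). At a median of 7.5 counts per library, Bub1 is the least counted of the 40.

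Cdc20, which activates the complex that ends metaphase, had 0.624, 0.879 and 1.52 CPM in FAAH S268D NASH-AA, against 1.19, 1.61 and 3.41 CPM in WT NASH-AA, and -0.82 ± 0.34 did not pass (adjusted p = 0.241). It lies 2.41 Mb from Faah on chromosome 4, overlaps Elovl1 on the other strand and shares 23.4% of its words with the pseudogene Gm7856. Birc5, survivin, which works with Aurora B, averaged 1.81 ± 0.465 CPM in FAAH S268D NASH-AA, 1.61 ± 0.429 CPM in FAAH S268D NASH, 1.75 ± 0.142 CPM in WT NASH-AA and 2.204 ± 0.469 CPM in WT NASH (SD, n = 8 each). Its fold change on the NASH-AA diet, FAAH S268D over WT, was 0.01 ± 0.16.

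All 8 genes of the spindle, the kinetochore and cytokinesis were negative in all 4 comparisons of 2 groups, and 4 of the 8 fell in FAAH S268D livers on the NASH diet. Kif11, the motor that pushes the spindle poles apart, had 0.806, 1.21 and 1.92 CPM in FAAH S268D NASH, against 1.35, 2.31 and 2.69 CPM in WT NASH. It had the smallest adjusted p of the 40 (-0.73 ± 0.21, adjusted p = 0.0228). All 8 FAAH S268D NASH libraries were below the WT NASH median and 5 were below the lowest WT NASH library. Tpx2, which nucleates spindle microtubules, had 0.422, 1.16 and 2.78 CPM in FAAH S268D NASH, against 1.07, 2.59 and 3.44 CPM in WT NASH (-0.95 ± 0.28, adjusted p = 0.0289). Cenpe, the motor of the kinetochore, had 0.322, 0.701 and 2.004 CPM in FAAH S268D NASH, against 0.823, 1.84 and 2.45 CPM in WT NASH (-0.99 ± 0.29, adjusted p = 0.0274). In each of these 3 genes the groups overlapped, with FAAH S268D NASH replicates 5 and 6 within the WT NASH range.

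Prc1 (ENSMUSG00000038943, chromosome 7, 80294450 to 80316259), which bundles microtubules at the middle of the dividing cell, had 0.413, 1.15 and 2.74 CPM in FAAH S268D NASH, against 1.36, 2.34 and 2.89 CPM in WT NASH. It fell on the NASH diet in FAAH S268D livers (-1.04 ± 0.30, adjusted p = 0.0253), with 6 of 8 libraries below the lowest WT library. Under the NASH-AA diet the levels were 0.277, 0.708 and 1.62 CPM in FAAH S268D NASH-AA, against 1.07, 1.74 and 2.32 CPM in WT NASH-AA. There too 6 of 8 were below the lowest WT library, and -1.11 ± 0.33 did not pass (adjusted p = 0.119). Prc1 overlaps 2 genes on the other strand, Rccd1 and 6330403N20Rik.

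Kif20a, a motor of cytokinesis, was the 1 gene of the 40 with groups that did not overlap, in 1 of the 4 comparisons of 2 groups. On the NASH-AA diet it had 0.537, 1.16 and 1.52 CPM in FAAH S268D NASH-AA, against 1.52, 2.23 and 3.08 CPM in WT NASH-AA. All 8 FAAH S268D libraries lay below all 8 WT libraries, with 1.516 CPM in the highest FAAH S268D NASH-AA library and 1.524 CPM in the lowest WT NASH-AA library, as in 0.416% of all genes tested, or 0.624% in either direction. In the other comparisons 0 of the 40 had groups that did not overlap, against 0.215% of all genes on the NASH diet between genotypes (0.107% lower), 0.282% for diet in WT (0.181% lower) and 0.0604% for diet in FAAH S268D (0.0403% lower). The Kif20a fold change of -0.98 ± 0.29 did not pass over all genes (adjusted p = 0.114). On the NASH diet it had 0.758, 1.97 and 3.2 CPM in FAAH S268D NASH, against 1.399, 3.04 and 4.32 CPM in WT NASH, with -0.66 ± 0.25 (adjusted p = 0.0906). Kif20a overlaps Cdc23 on the other strand. Kif23, a motor of the central spindle, Nusap1, a spindle-associated protein, and Cenpf, a protein of the kinetochore, had fold changes on the NASH diet of -0.70 ± 0.24, -0.77 ± 0.27 and -0.87 ± 0.36, and Bub1b, a checkpoint protein, of -0.64 ± 0.23, with adjusted p between 0.0628 and 0.119.

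The 40 genes were summed up per library as the mean of their log2 CPM, each centred on its mean over the 32 libraries. The lowest, median and highest score was -1.01, -0.35 and 0.01 in FAAH S268D NASH-AA and -0.95, 0.00 and 0.50 in FAAH S268D NASH. In WT it was -0.29, 0.10 and 0.36 on NASH-AA and -0.21, 0.51 and 0.71 on NASH. FAAH S268D NASH had the widest spread of the 4 groups. Replicates 2, 3 and 4 had -0.95, -0.86 and -0.39, replicate 1 had -0.07, and replicates 5 to 8 had 0.50, 0.43, 0.30 and 0.07. Replicates 1 to 5 of that group are among libraries 1 to 16 and replicates 6 to 8 are among libraries 17 to 32. In WT NASH, replicate 5 had -0.21 and the other 7 had 0.32 to 0.71.

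**Figure D4:**
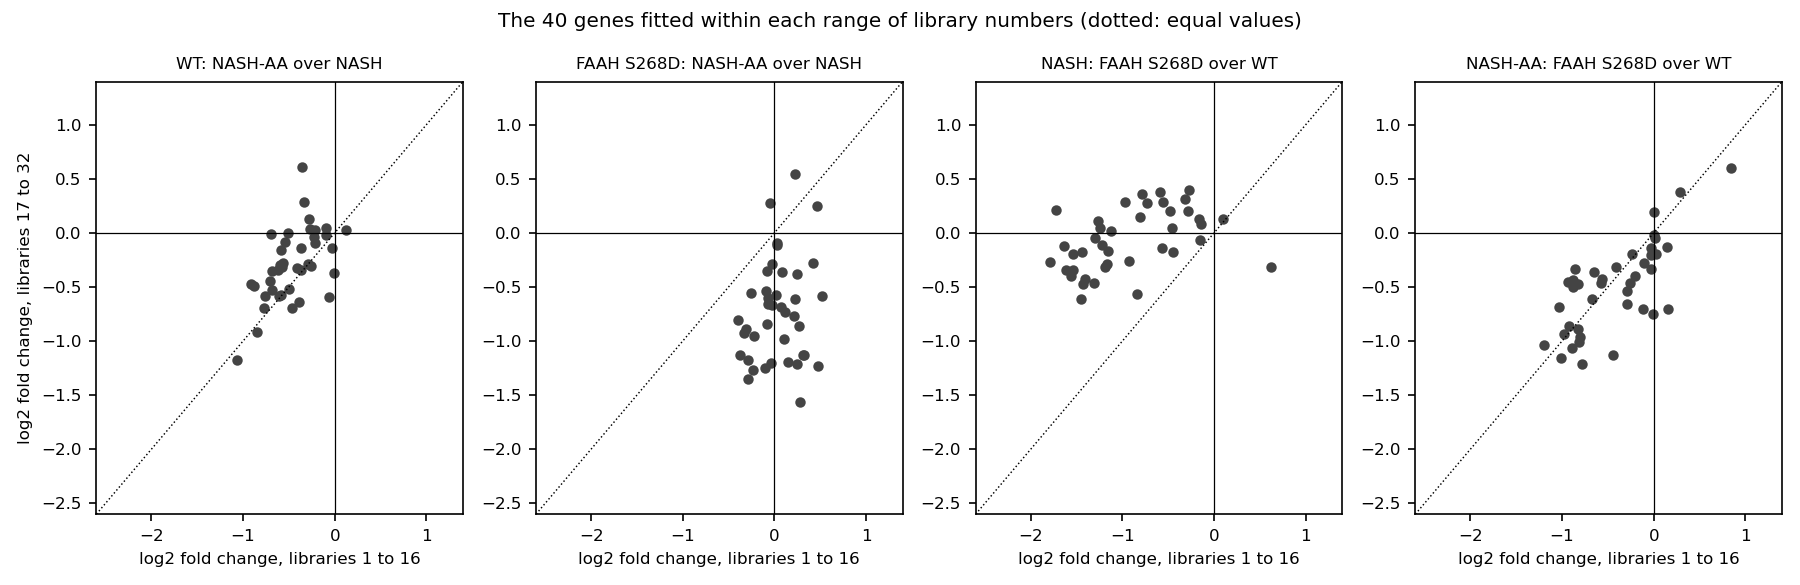
Log2 fold change of each of the 40 genes fitted among libraries 1 to 16 (horizontal axis) and among libraries 17 to 32 (vertical axis), in 4 comparisons, with a dotted line where the values are equal. On the NASH diet, FAAH S268D over WT, the points have a median of -1.05 along the horizontal axis and -0.09 along the vertical axis, while on the NASH-AA diet the medians are -0.43 and -0.46.

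Correlations of log2 CPM between the genes are given as a description over 32 libraries, in which the values of a library share its depth and scaling. Mki67 and Top2a had a Pearson correlation of 0.961, and pairs among the 8 genes of the spindle, kinetochore and cytokinesis had a median of 0.790. Pairs among the 10 replication genes had a median of 0.731, and pairs among the 4 genes of deoxynucleotide supply had a median of 0.0738. Pairs between those of deoxynucleotide supply and the spindle group had a median of 0.143, with a lowest value of -0.628. Against the mean of the other 39, the correlation was 0.941 for Tpx2, 0.291 for Ccne1, -0.03 for Tyms and -0.58 for Tk1. Of tested genes outside the 40, the 5 with the highest correlation to the score were Hmmr (0.939), Racgap1 (0.936), Ckap2l (0.920), Gusb (0.919) and AI506816 (0.918). Gusb and AI506816 are in none of the other cell cycle lists used here. Correlations this high were thus not confined to the listed genes of the cell cycle. The 5 tested genes with the lowest were Scnn1a (-0.90), Serpina1d (-0.89), Tprkb (-0.89), Pipox (-0.88) and BC024139 (-0.88).

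Of 125 other genes of the cell cycle, in 5 lists, 117 were tested. In FAAH S268D livers on the NASH diet 12 fell, where 6.29% of all genes were called lower. With the NASH-AA diet in WT 2 fell, where 2.97% of all genes were called lower, a larger share than among the 117. The other 3 contrasts gave 0 calls. All genes called there were 0.0939% for diet in FAAH S268D, 0.658% between genotypes on NASH-AA and 0.0% for the interaction. Of 45 tested genes of mitosis outside the 40, 10 fell and 0 rose in FAAH S268D livers on the NASH diet, and 43 were negative, with a median of -0.69. The 3 with the smallest p were Hmmr, a spindle-associated protein, with 0.685 ± 0.426 CPM in FAAH S268D NASH, against 1.402 ± 0.438 CPM in WT NASH (SD, n = 8 each; -1.201 ± 0.31, adjusted p = 0.0159), Ndc80 and Melk. Ndc80, a core protein of the kinetochore, had 0.318 ± 0.203 CPM in FAAH S268D NASH, against 0.669 ± 0.144 CPM in WT NASH (-0.98 ± 0.26, adjusted p = 0.016). Melk, a kinase expressed in dividing cells, had 0.282 ± 0.225 CPM in FAAH S268D NASH, against 0.636 ± 0.201 CPM in WT NASH (-1.18 ± 0.32, adjusted p = 0.0202), and it also fell with the NASH-AA diet in WT (-1.43 ± 0.32, adjusted p = 0.0181). Of 34 tested replication genes outside the 40, 0 fell in FAAH S268D livers on the NASH diet, and their median was 0.01.

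Of 14 tested cyclins, kinases and CDC25 phosphatases outside the 40, 1 fell on the NASH diet in FAAH S268D livers. It was Cdc25b, which activates CDK1 (-0.51 ± 0.14, adjusted p = 0.0242). Among 9 tested inhibitors and pocket proteins, 1 fell there, Rbl1, a partner of repressive E2F factors (-0.56 ± 0.17, adjusted p = 0.0387). In that comparison 6.29% of all genes were called lower, near the share in the list of 14. Of the same 9, 1 fell with the NASH-AA diet in WT, where 2.97% of all genes were called lower. It was Cdkn1c, a CDK inhibitor (-0.47 ± 0.13, adjusted p = 0.0423). With 1 call per list, these are results for single genes and not for the lists. Cdkn1a, the CDK inhibitor induced by damage, had 2.01, 4.35 and 7.79 CPM in FAAH S268D NASH-AA, against 7.14, 11.9 and 20.8 CPM in WT NASH-AA. It had 1.09, 11.8 and 32.05 CPM in FAAH S268D NASH, against 10.5, 18.7 and 27.8 CPM in WT NASH. Neither its fold change, FAAH S268D over WT, of -1.47 ± 0.48 on NASH-AA (adjusted p = 0.154) nor that of -1.19 ± 0.40 on NASH (adjusted p = 0.0584) passed. Of 15 tested E2F, DREAM and MYB factors, 0 passed in any contrast.

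Markers of some other cells also passed between genotypes on the NASH diet, where 6.29% of all genes were called lower and 2.89% higher. Of 15 markers of monocytes and macrophages, 12 fell in FAAH S268D livers on the NASH diet and all 15 were negative. Their summed level was 318.5 to 1007 CPM in FAAH S268D NASH, against 513.6 to 1551 CPM in WT NASH, and 313.5 to 626.6 CPM in FAAH S268D NASH-AA, against 552.7 to 781.0 CPM in WT NASH-AA. T and NK cell markers fell in 6 of 11 tested on the NASH diet, with a summed level of 5.79 to 14.7 CPM in FAAH S268D NASH, against 8.59 to 20.2 CPM in WT NASH. Neutrophil markers fell in 2 of 3, dendritic cell markers in 3 of 8 and stellate cell and fibroblast markers in 1 of 10, while of 15 hepatocyte markers 4 rose and 0 fell. Hepatocyte markers summed to 80540 to 126000 CPM in FAAH S268D NASH, against 71210 to 102900 CPM in WT NASH. No marker of these lists was at 0 in all libraries, and 0 of 8 B and plasma cell markers, 0 of 7 cholangiocyte markers, 0 of 8 sinusoidal markers and 0 of 6 erythroid markers passed, with 1 of 6 Kupffer cell markers lower. Between genotypes on the NASH-AA diet 0 markers of any list passed. With the NASH-AA diet in WT, 3 of 15 macrophage, 3 of 8 dendritic cell, 2 of 8 sinusoidal and 1 of 7 cholangiocyte markers fell and 3 of 15 hepatocyte markers rose. There 2.97% of all genes were called lower and 1.44% higher. In FAAH S268D 1 hepatocyte marker fell with that diet, where 0.0671% of all genes were called lower.

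Libraries low in the 40 genes included some low in macrophage markers. FAAH S268D NASH replicates 2, 3 and 4 had macrophage scores of -0.99, -0.76 and -1.24 and hepatocyte scores of 0.19, 0.26 and 0.35, on the same log2 scale as the score of the 40. FAAH S268D NASH replicate 5 had a macrophage score of 0.66 and a hepatocyte score of -0.41. WT NASH replicate 5 had a macrophage score of -0.50, with 0.66 to 1.4 in the other 7. The part of these cells in the values of the 40 genes was not tested.

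**Figure D5:**
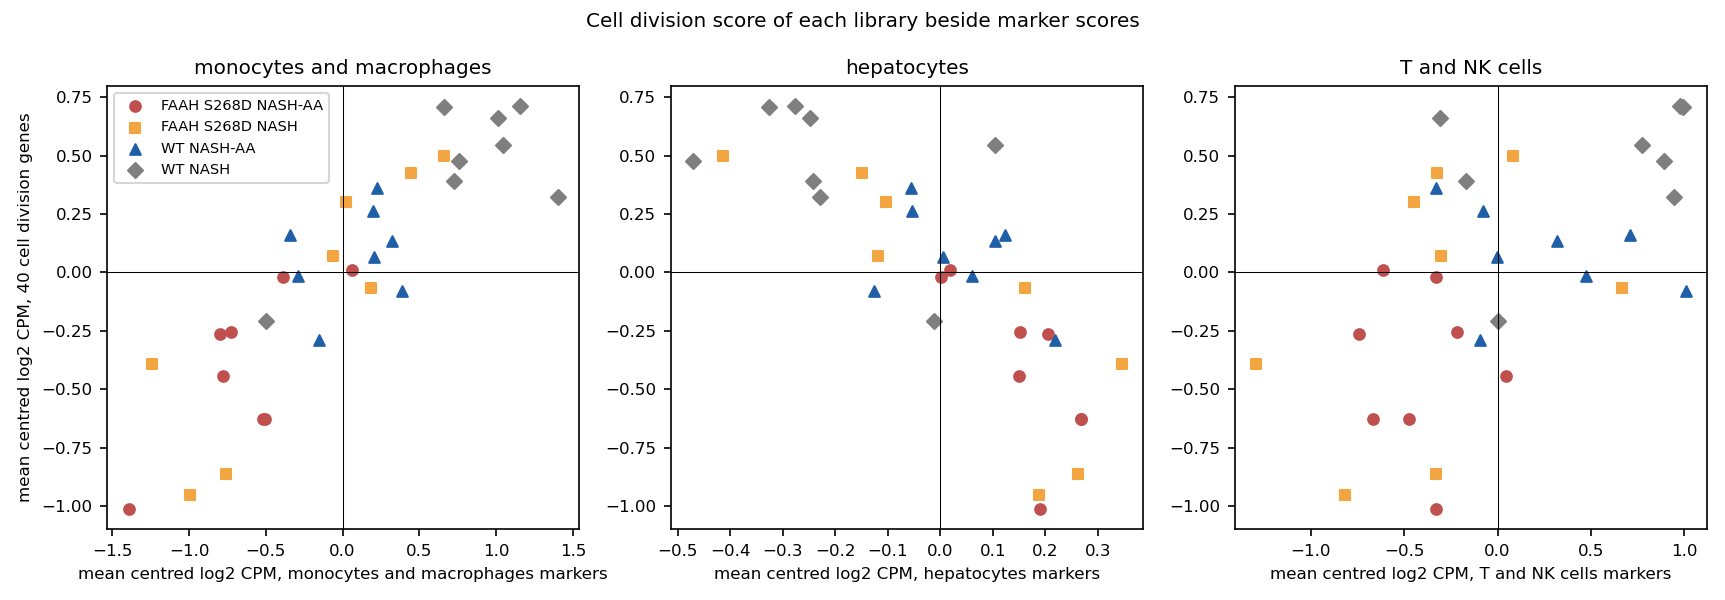
Mean centred log2 CPM of the 40 genes (vertical axis) beside that of marker genes of monocytes and macrophages, hepatocytes, and T and NK cells (horizontal axes), with 1 point per library and a colour and shape per group. Libraries low in the 40 genes, at the bottom left of the macrophage plot, include FAAH S268D NASH replicates 2 and 3 (-0.95 and -0.86) and FAAH S268D NASH-AA replicate 5 (-1.01).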

How the data were processed

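PolyA RNA of mouse liver was sequenced in 32 libraries, and the authors deposited a merged table of estimated counts per gene. Tools named in the submitters' processing notes are STAR 2.7.10, UMI-tools 1.1.2 and Trim Galore 0.6.7, with the build GRCm38. The sources used here do not state the counter, the annotation or whether counting was stranded. A spreadsheet had altered some of the 1775584 deposited cells: 0.464% read as clock times and 0.107% as fractions of a day. Another 11.4% held dots before groups of 3 digits and were read as thousandths, and unaltered values with 3 decimals may be among them. Cells of these kinds were read back as counts and rounded. Of all cells, 3700 (0.208%) had 2 possible originals, 3 of them among the 1280 cells of the 40 genes. Because the altered cells are not numbers as deposited, these other values were tested with limma-voom (limma 3.58.1, R 4.3.3) on TMM-scaled counts plus 0.5. Genes needed the CPM of 10 counts in a median library in at least 8 libraries, and 15 counts in total. All 4 groups were fitted together without covariates, with Benjamini-Hochberg adjustment over 14903 genes and a threshold of 0.05. Libraries held 3851626 to 34370178 counts, with a median of 22896702. The genes and lists were chosen with earlier results of these data known. Genes given in detail are those past the threshold in any contrast, the 2 of each role with the highest mean CPM, and Mki67, Top2a, Ccnd1 and Foxm1; for the other lists, up to 3 genes with the smallest p, and the 5 genes most like the score. Other genes of the 40 with values, Cdt1 and Mcm6 among them, and the 5 genes least like the score were picked after their values were seen. Promoter windows came from RefSeq, and a copy was named where it shared at least 20% of a gene's 31-base words. Alternatives were another scaling, other filters, blocks, quality weights, limma-trend, 2 groups alone, either range of library numbers, another reading of altered cells, and leaving out each library. A result for 1 gene of the other lists is not reported here.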

Additional observations from a re-analysis of the deposited data

Results flagged for a closer look

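In 4 of 96 groups of 8 libraries examined, 1 library stood apart by a gap over range above 0.526, a limit that chance passes in about 1 group in 20. Mki67 in WT NASH-AA replicate 8 was 4.365 CPM, with 6.59 to 8.34 CPM in the other libraries of the group. E2f1 in FAAH S268D NASH-AA replicate 5 was 4.788 CPM, with 6.983 to 8.763 CPM in the others, and that library also had the lowest mean score of the 40 genes. Tk1 in WT NASH replicate 6 was 21.79 CPM, with 10.39 to 14.57 CPM in the others. The mean score of the 40 genes in WT NASH replicate 5 was -0.2073, with 0.323 to 0.7119 in the others, and its macrophage score was also the lowest of the group.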

How the results depend on the processing

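On the NASH diet, FAAH S268D against WT, 12 of the 40 genes passed in the main fit, with 9.18% of all genes called. The count was 5 under the stricter filter, which tested 25 of them and called 10.5% of all genes it tested. It was 1 with a replicate block, where 6.45% of all genes were called, a larger share than among the 40. Libraries 17 to 32 gave 0 (0.134% of all genes) and the 2 groups alone gave 0 (0.49%). The count was 8 with a library-number block (8.47%), 9 among libraries 1 to 16 (5.92%) and 12 with quality weights (13.2%). With quality weights the median over the 40 was -0.45 with 33 negative, against -0.65 with 37 negative in the main fit. The count was 8 without a filter, 11 with median-of-ratios scaling, 11 in limma-trend and 12 with the other reading of altered cells. For these fits, in this and the other comparisons, the shares of all genes called are not given here. Their counts therefore have no background beside them. With 1 library left out the count ran from 0 to 21, and calls over all 14903 genes ran from 492 to 2646, against 1368 in the main fit. For diet in WT the count of 1, with 4.41% of all genes called, was 0 without a filter and 0 in limma-trend. It was 0 under the stricter filter (5.53% of the genes it tested), 0 with a replicate block (0.114%) and 0 with a library-number block (2.48%). Each range of library numbers also gave 0 (0.0% and 1.1% of all genes). The count was 3 with the 2 groups alone (7.31%) and 19 with sample quality weights (25.2%). With 1 library left out it ran from 0 to 11, and calls over all genes ran from 26 to 2191, against 657 in the main fit. For diet in FAAH S268D the count of 0 was 2 among libraries 17 to 32 (2.5% of all genes) and 5 with quality weights (7.13%). With 1 library left out it ran from 0 to 2, and calls over all genes ran from 6 to 362, against 14 in the main fit. On the NASH-AA diet, FAAH S268D against WT, the count of 0 was 7 with the 2 groups alone (4.12% of all genes) and 7 with quality weights (5.07%). That count stayed at 0 with any 1 library left out. The interaction gave 0 in every fit run, while its median over the 40 turned from 0.04 to -0.12 with quality weights. The cause of these changes was not tested, apart from the fewer genes and samples that the stricter filter and the smaller fits hold by construction. Same-numbered replicates of 2 groups correlated between -0.383 and 0.332 in their deviations, with at most 3 of 8 pairs over 0.1. The best match carried the same number for 3 of 8 replicates for diet in WT and 1 of 8 for diet in FAAH S268D. Between genotypes it did so for 3 of 8 on NASH and 1 of 8 on NASH-AA. The labels do not say if the numbers pair the samples, and these correlations cannot decide it, because a pairing need not show in them. None of the fold changes of the called genes turned its sign in these fits. Counts per library limit the genes of low level, and 1 library held 3851626 counts.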
